A study of Mus musculus with 16 samples.

Results

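The small heat shock proteins of striated muscle and their co-chaperone Bag3 were described in fetal mouse atria and ventricles with and without a myocyte-driven deletion of Meis1 and Meis2. The members were taken by gene name (Hspb1, Hspb2, Hspb3, Hspb6, Hspb7, Hspb8, Cryab and Bag3), and 8 of 8 were among the 16118 genes in the expression table. RNA was sequenced from 16 libraries of 8 embryos at embryonic day E15.5, 1 atrial and 1 ventricular library per embryo, with 4 libraries in each of 4 groups: control atrium, dKO atrium, control ventricle and dKO ventricle. The dKO embryos were Meis1 flox/flox and Meis2 flox/flox with 1 copy of a Cre transgene under the alpha-myosin heavy chain promoter (aMHC), which acts in cardiomyocytes (the series' own description allows a constitutive or an inducible deletion and the labels used here do not say which), so the other cells of the heart were not targeted. The controls also carried floxed alleles of both genes but no Cre, so the deletion and the presence of Cre cannot be told apart. The outflow tract had been removed. The protocol names 4 litters, whereas the embryo titles start with only 3 numbers: 1 number held 2 embryos of each genotype (called the shared title number below), and the others held 2 control and 1 dKO embryo, and 1 dKO embryo alone. Values are the deposited CPM, and differences between groups are given on the scale of log2(CPM + 1), which understates changes of low genes. How reads were scaled to these CPM is not given in the sources used here. Their sums over all listed genes were not equal between libraries, from 753687 in a control atrium to 841274 in a control ventricle. The p-values measure the spread between embryos.

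Small heat shock proteins share an alpha-crystallin domain and form oligomers that hold partly unfolded proteins until ATP-dependent chaperones refold them or hand them to degradation. In heart and skeletal muscle they bind desmin, actin, titin and filamin at the Z-disc and along the filaments. Bag3 links the small heat shock proteins Hspb8 and Hspb6 to HSP70, and this complex sends damaged filamin to autophagy, a route called chaperone-assisted selective autophagy. Hspb8 with Bag3 is thus the client delivery arm, Hspb1, Cryab, Hspb6 and Hspb7 are the filament-associated arm, and Hspb2 and Hspb3 form a complex with each other in muscle. Heat shock factors act on promoters through inverted repeats of the unit GAA, and MEIS proteins bind DNA around the core TGACAG.

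All 8 genes are protein coding. In GENCODE M21 (build GRCm38) they lie at chr5:135887919-135889563 (Hspb1, plus strand), chr9:50751078-50752354 (Hspb2, minus strand), chr13:113662896-113663676 (Hspb3, minus strand), chr7:30552178-30555443 (Hspb6, plus strand), chr4:141420779-141425311 (Hspb7, plus strand), chr5:116408491-116422864 (Hspb8, minus strand), chr9:50751325-50756636 (Cryab, plus strand) and chr7:128523616-128546981 (Bag3, plus strand). Hspb2 and Cryab lie head to head on opposite strands and share 252 exon bases, which is 30.2% of the exon bases of Hspb2 and 17.0% of those of Cryab. Hspb6 shares 122 exon bases (5.3%) with Proser3 and 3 with Lin37, both on the opposite strand. The use of strand in counting is not given in the sources used here, so reads from these shared stretches could belong to either gene, and the levels of Hspb2, Cryab and Hspb6 are uncertain to that extent.

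RefSeq promoters (GRCm38.p6) were matched for 6 of the 8 genes, in 7 windows of 300 bases that run from 250 bases before to 50 after the start site. The 250 bases before the start are shown for Hspb7 and Hspb1, the 2 members that fell in dKO atria, and for Hspb8, the only 1 of these 6 genes with the MEIS core. Capitals mark the motifs found.
Hspb7 (chr4:141420529-141420778, plus strand): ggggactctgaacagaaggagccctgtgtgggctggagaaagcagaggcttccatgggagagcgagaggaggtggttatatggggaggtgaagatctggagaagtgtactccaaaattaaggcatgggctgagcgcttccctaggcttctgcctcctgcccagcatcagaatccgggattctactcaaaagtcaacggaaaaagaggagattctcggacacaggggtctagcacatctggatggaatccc
Hspb1 (chr5:135887669-135887918, plus strand): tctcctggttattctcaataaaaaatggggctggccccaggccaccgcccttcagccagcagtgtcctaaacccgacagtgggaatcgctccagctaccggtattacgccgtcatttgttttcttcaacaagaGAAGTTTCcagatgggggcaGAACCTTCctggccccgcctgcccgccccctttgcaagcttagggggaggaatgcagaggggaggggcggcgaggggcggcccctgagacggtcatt
Hspb8 (chr5:116422865-116423114, minus strand): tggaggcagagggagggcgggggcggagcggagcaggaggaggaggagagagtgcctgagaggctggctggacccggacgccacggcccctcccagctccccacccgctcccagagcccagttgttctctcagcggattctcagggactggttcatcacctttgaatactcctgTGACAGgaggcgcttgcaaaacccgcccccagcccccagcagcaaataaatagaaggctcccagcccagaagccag
Motifs were searched on both strands as exact letters: GAANNTTC and TTCNNGAA (inverted heat shock units), TGACAG (MEIS core) and the motif of MEF2, a muscle factor. The Hspb7 window held none of the 4. The Hspb1 window held GAANNTTC at positions -117 to -110 and -97 to -90 from the start site. The Hspb8 window held TGACAG at -76 to -71 and GAANNTTC just after the start, at 3 to 10. GAANNTTC also stood in the windows of Hspb3 (-224 to -217), Hspb6 (-120 to -113, in the second of its 2 windows) and Bag3 (43 to 50), shown here with the motif in capitals so that the units can be compared.
Hspb3 (chr13:113663882-113663911, minus strand): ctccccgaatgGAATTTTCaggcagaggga
Hspb6 (chr7:30553170-30553199, plus strand): aagtaattattGAAGTTTCtaaataaggaa
Hspb8 (chr5:116422844-116422873, minus strand): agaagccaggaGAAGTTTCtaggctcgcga
Bag3 (chr7:128523614-128523632, plus strand): ggatgggaccaGAAGTTTC
The letters GAANNTTC occurred in 5 of the 6 member genes and in 7.86% of all 32851 promoter windows, and TTCNNGAA in no member and in 8.52%. TGACAG occurred in 1 member gene and in 19.2% of all windows. The MEF2 motif occurred in Hspb3 (-12 to -3) and in 3.69% of all windows, and no 2 of these matches overlapped. A match is a description of the letters and not of a bound site.

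Depth ranged from 7.88 to 23.0 megareads recovered per library, and the members had 144 to 25466 reads each, well above the 3 reads taken as the floor of detection. The dKO ventricles were the shallowest group (7.88 to 14.3 megareads, against 15.6 to 23.0 in control ventricles). The deposited CPM of all listed genes summed to 753687 to 782986 in control and 763014 to 775599 in dKO atria. In ventricles the sums were larger, 823078 to 841274 in control and 804313 to 819651 in dKO libraries. The chambers carried their own markers: the mean log2 level of 10 atrial myocyte markers was 8.34 to 8.67 over the atrial and 4.62 to 5.24 over the ventricular libraries, and that of 9 ventricular markers 4.05 to 4.79 and 8.74 to 9.05. Meis1 fell in the atrial libraries labelled dKO (26.1 ± 3.19 against 40.4 ± 2.61 CPM, exact permutation p = 0.0286, the smallest that 4 against 4 allows) and Meis2 in the ventricular ones (23.4 ± 2.85 against 39.2 ± 3.46 CPM, exact permutation p = 0.0286). Meis1 in ventricles (98.5% of control, exact permutation p = 0.8) and Meis2 in atria (105% of control, exact permutation p = 0.486) gave no check of the label, and dKO is used below as the label of a library. Exon-level values that would show the deletion itself were not analysed here. In such bulk tissue fewer cells of a type and less RNA per cell cannot be told apart.

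Levels of different genes were compared per kilobase of exons. In control atria Hspb7 (254 ± 26.8 CPM per kilobase, SD, n = 4), Hspb1 (241 ± 18.5) and Cryab (216 ± 22.5) led, with overlapping ranges between Hspb7 and Hspb1 and between Hspb1 and Cryab. Hspb2 followed at 77.6 ± 11.4 CPM per kilobase, apart from both neighbours. Bag3 (25.3 ± 1.14) overlapped Hspb3 (22.3 ± 1.67), which overlapped Hspb6 (21.3 ± 2.17), and Hspb8 was lowest at 15.4 ± 1.06 with no overlap. In control ventricles Hspb7 (328 ± 9.84) and Hspb1 (304 ± 15.8) overlapped each other and stood above Cryab (205 ± 20.1). Hspb6 (29.7 ± 1.91), Bag3 (28.0 ± 0.60) and Hspb8 (27.8 ± 2.78) formed an overlapping group there and Hspb3 was lowest (13.8 to 16.3). Of the 4 filament-associated genes, Hspb7, Hspb1 and Cryab thus had the 3 highest levels per kilobase in both control chambers, while Hspb6 was the seventh of 8 in atria and the fifth in ventricles. The lowest gene was Hspb8 in control atria and Hspb3 in control ventricles. In dKO atria the top of the order was Cryab (216 ± 13.7), Hspb1 (180 ± 14.4) and Hspb7 (139 ± 11.9), with no overlap between neighbours, whereas dKO ventricles kept Hspb7 (307 ± 18.1) and Hspb1 (304 ± 18.7) first. With the longest transcript in place of all exons, Cryab came first and Hspb7 the third in control atria (287 and 254 CPM per kilobase), so the order among these 3 there depends on the length used.

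**Figure D1:**
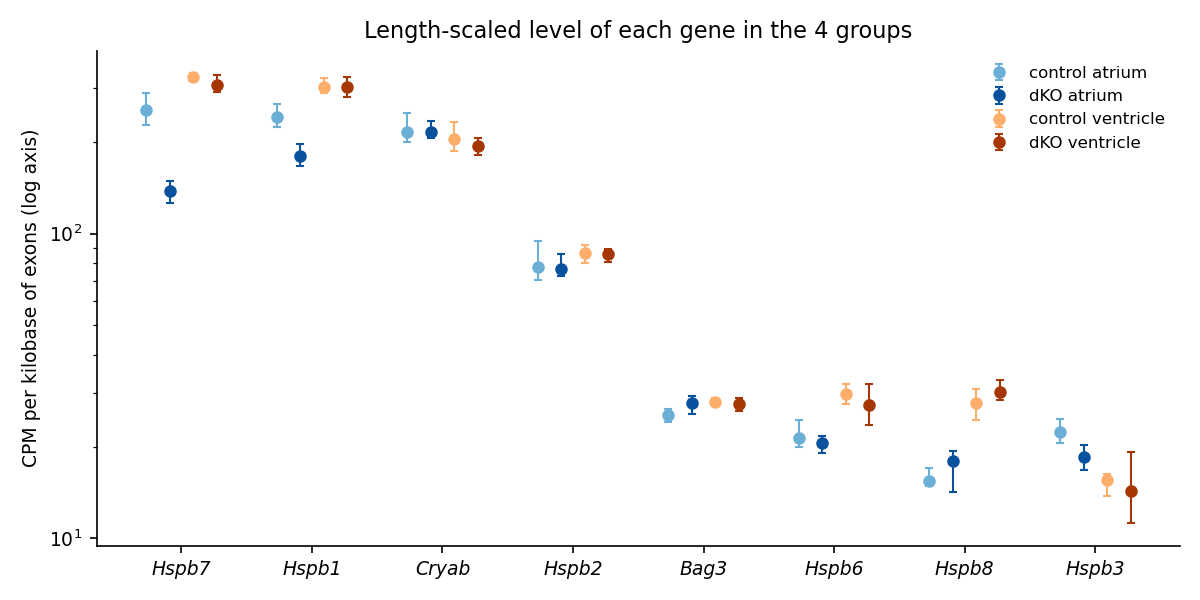
Mean CPM per kilobase of exons on a log axis for the 8 genes, with bars from the lowest to the highest of 4 libraries in each group. Hspb7 and Hspb1 lie lower in dKO atria (139 and 180 CPM per kilobase) than in the other 3 groups, while Cryab lies between 194 and 216 in all 4.

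In dKO atria Hspb7 and Hspb1 fell and the other 6 genes were not called, so that 2 of 8 members were called, both lower. Genes entered the test from an average of 1 CPM over all libraries, and of these 13950 genes 7.47% were called in this comparison and 3.43% were called lower. A gene was called at a limma adjusted p under 0.05 (Benjamini-Hochberg over all genes tested). The ranges of the genotypes did not overlap for 3 of the 8 members, Hspb7, Hspb1 and Hspb3, and for 14.1% of all genes tested. The median log2 difference of all genes was -0.005.

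Hspb7, a heart-enriched small heat shock protein that binds filamin C and sarcomeric actin, was measured at 629, 717, 670.3 and 802 CPM in control atria and at 349, 362, 413 and 410.5 CPM in dKO atria. Every dKO library lay well below every control library. The mean was 384 ± 32.9 against 704 ± 74.2 CPM (SD, n = 4), 54.5% of control, a log2 difference of -0.87 ± 0.087 (SE; limma adjusted p = 0.000117), and Hspb7 ranked 82 of 13950 genes by p. Left out 1 library at a time, the difference stayed between -0.925 and -0.81. Within the shared title number, with 2 embryos per genotype, it measured -0.79 (limma adjusted p = 0.000992).

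Hspb1, the actin and intermediate filament chaperone known as HSP27 or HSP25, was measured at 238, 231, 250.5 and 274 CPM in control atria and at 175, 172, 192 and 203 CPM in dKO atria. The groups again did not overlap, and the dKO library with most Hspb1 (203 CPM) lay below the control library with least (231 CPM). The mean was 185 ± 14.8 against 248 ± 19.1 CPM (SD, n = 4), 74.7% of control, a log2 difference of -0.42 ± 0.072 (SE; limma adjusted p = 0.00468). Within the shared title number it measured -0.37 (limma adjusted p = 0.0106).

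The third filament-associated gene, Cryab (alphaB-crystallin, the desmin chaperone), was measured at 299, 317, 296 and 368 CPM in control and 316.5, 306, 304.5 and 348 CPM in dKO atria. The ranges overlapped fully. The log2 difference was -0.002, with a 95% interval from -0.17 to 0.17. Hspb6, also called HSP20, a partner of actin and of Bag3, overlapped as well (45.8 to 56.4 CPM in control and 43.8 to 49.7 in dKO atria; log2 -0.052, 95% interval -0.22 to 0.11).

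Of the muscle complex pair, Hspb3 was measured at 17.3, 16, 17.3 and 19.2 CPM in control and 14.1, 13.0, 14.9 and 15.8 CPM in dKO atria. All 4 dKO libraries lay below the controls, yet the difference missed the threshold (log2 -0.26 ± 0.087 SE, limma adjusted p = 0.109). Its partner Hspb2 overlapped between genotypes (58.5 to 78.9 CPM in control and 60.6 to 71.3 in dKO atria), with a log2 difference of -0.009 and a 95% interval from -0.22 to 0.20.

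The client delivery arm lay higher on average in dKO atria without being called. Hspb8, the Bag3-bound chaperone, was measured at 29.3, 28.8, 29.2 and 33.2 CPM in control and 27.8, 36.8, 37.3 and 37.8 CPM in dKO atria. In 3 dKO libraries it stood above every control, and dKO atrium 1 stood below them all. The log2 difference was 0.20 ± 0.099 (SE; limma adjusted p = 0.296). Without dKO atrium 1 it was 0.30 (adjusted p = 0.0262) and within the shared title number it was 0.34 (0.0285). With the title number as a covariate, where a lone library of a number adds nothing to the difference, it was 0.31 (limma adjusted p = 0.0157). Under the main scaling the call thus turned on dKO atrium 1, the only atrial library of its title number. The call turned on the scaling as well: relative to markers of myocytes, with all libraries kept, Hspb8 was called (0.38, limma adjusted p = 0.0323). Bag3 measured 61.6 to 68.2 CPM in control and 65.3 to 74.9 CPM in dKO atria (log2 0.13, 95% interval -0.009 to 0.26, limma adjusted p = 0.282).

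**Figure D2:**
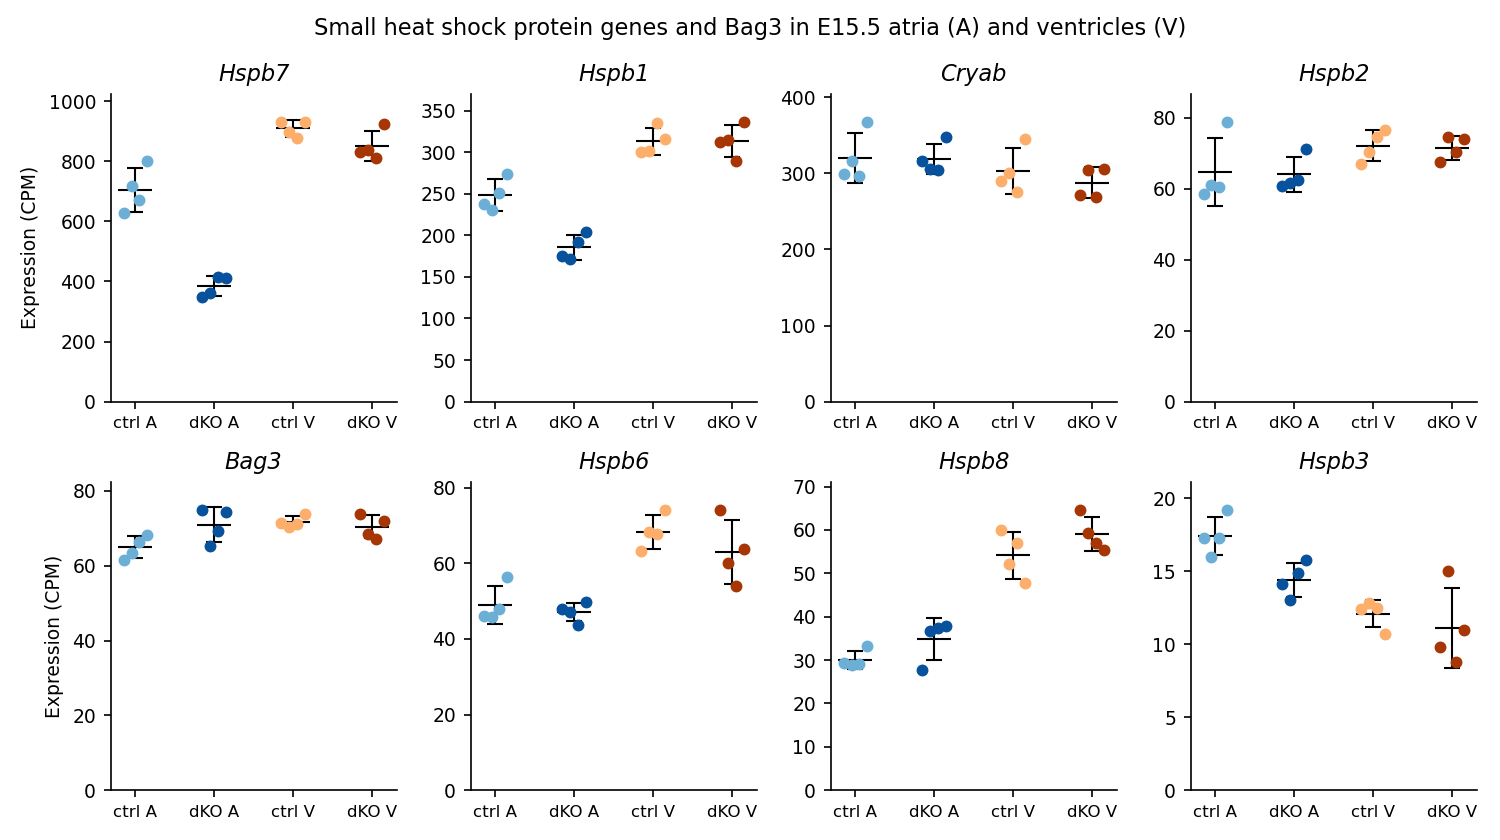
Expression in CPM (linear axis from 0) of each gene, 1 point per library, in control (ctrl) and dKO atria (A) and ventricles (V), with the mean and SD of 4 libraries as black bars. Hspb7 and Hspb1 of dKO atria (349 to 413 and 172 to 203 CPM) lie apart from the other 3 groups, and Hspb8 of dKO atrium 1 (27.8 CPM) lies apart from its group.

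Some markers of other cells rose in the same atria. Of 42 such markers 8 were called higher in dKO atria, where 563 of all 13950 genes tested were called higher. The 8 were 4 of 9 of smooth muscle and pericytes, 2 of 10 of fibroblasts, 1 of 7 of epicardium and 1 of 7 of macrophages. Of 9 endothelial markers none was called higher and 1 was called lower (median log2 0.054). The mean log2 level of the 42 markers was 6.0 to 6.13 in control and 6.20 to 6.47 in dKO atria, with dKO atrium 1 nearest to the controls. The summed level of the smooth muscle and pericyte markers was 798 to 925 CPM in control and 1087 to 1510 CPM in dKO atria. Kcnj8, 1 of these 9 markers, went the other way on average, with 9.3 ± 1.66 CPM in control and 5.62 ± 1.69 CPM in dKO atria (SD). None of the 9 was called lower. Of 10 atrial myocyte markers 3 were called higher and 2 lower in dKO atria. Their summed level was 10534 to 12470 CPM in control and 13391 to 14705 CPM in dKO atria. Their mean log2 level overlapped (8.34 to 8.58 and 8.45 to 8.67). Of 9 ventricular myocyte markers 0 were called higher and 2 lower (mean log2 4.31 to 4.79 in control and 4.05 to 4.47 in dKO atria). The mean of 10 markers of myocytes of either chamber was 10.73 to 10.98 in control and 10.54 to 10.73 in dKO atria, with 1 of the 10 (Actn2) called lower. None of these lists had a marker at 0 reads. Measured relative to these myocyte markers, an alternative chosen after seeing the data, Hspb7 still differed by -0.69 (limma adjusted p = 0.000415), Hspb1 by -0.24 (adjusted p = 0.091), Hspb8 by 0.38 (adjusted p = 0.0323) and Bag3 by 0.31 (adjusted p = 0.0402). With the 42 other markers as a covariate, which itself separates the genotypes, Hspb7 measured -0.98 (limma adjusted p = 0.03), Hspb1 -0.54 (adjusted p = 0.135) and Hspb8 -0.16 (adjusted p = 0.764). The part of cell makeup in these results beyond those values was not tested.

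Summed over all 8 genes, expression was 1499 ± 140 CPM in control atria and 1120 ± 69.9 CPM in dKO atria (SD, n = 4), with ranges of 1379 to 1700 and 1064 to 1211 CPM. Without Hspb7 and Hspb1 the sums were 546 ± 52.5 and 550 ± 31.7 CPM. By CPM the smaller total of dKO atria thus lay in these 2 genes. They were left out because they fell in these same libraries, so the likeness of the remaining sums is not a test. Cryab made up most of those sums (320 CPM in control and 319 CPM in dKO atria), and low genes such as Hspb3 hardly show in them. Hspb7 made up 47.0% ± 1.19 of the 8-gene sum in control atria and 34.3% ± 1.5 in dKO atria, and Cryab 21.3% ± 0.518 and 28.5% ± 1.23. In ventricles the composition differed little: Hspb7 held 50.4% ± 1.07 in control and 49.2% ± 0.881 in dKO libraries. Control atrium 4 had the highest value of its group for all 8 genes, and dKO atrium 4 for 6 of them.

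In dKO ventricles 0 of the 8 members were called at a limma adjusted p under 0.05 (2.0% of all genes were), 0 had an unadjusted p under 0.05, and both edgeR and DESeq2 on recovered reads also called 0. No member had ranges that did not overlap, against 8.11% of all genes tested. Hspb7 was measured at 931.5, 897, 877 and 932 CPM in control and 829, 836, 810.4 and 923 CPM in dKO ventricles. In 3 dKO libraries it stood below every control, and dKO ventricle 4 stood among them. The log2 difference was -0.099, with a 95% interval from -0.21 to 0.015 (limma adjusted p = 0.477), and the interval ends short of the atrial difference. Hspb1 was measured at 299.6, 302, 335 and 316 CPM in control and 312, 314, 289.7 and 337 CPM in dKO ventricles, so that both groups averaged 313 CPM (log2 -0.001, 95% interval -0.12 to 0.12). The other 6 genes differed by -0.13 (Hspb3) to 0.13 (Hspb8), and dKO ventricle 3 had the lowest value of its group for 6 of the 8 genes. Markers of other cells overlapped between genotypes in ventricles (mean log2 of the 42 markers 5.74 to 5.84 in control and 5.69 to 5.87 in dKO). The chamber markers did not. The mean log2 level of 10 atrial myocyte markers was 4.62 to 4.97 in control and 5.03 to 5.24 in dKO ventricles, with 3 called higher and 0 lower. That of 9 ventricular myocyte markers was 8.91 to 9.05 in control and 8.74 to 8.8 in dKO ventricles, with 0 called higher and 2 lower.

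**Figure D3:**
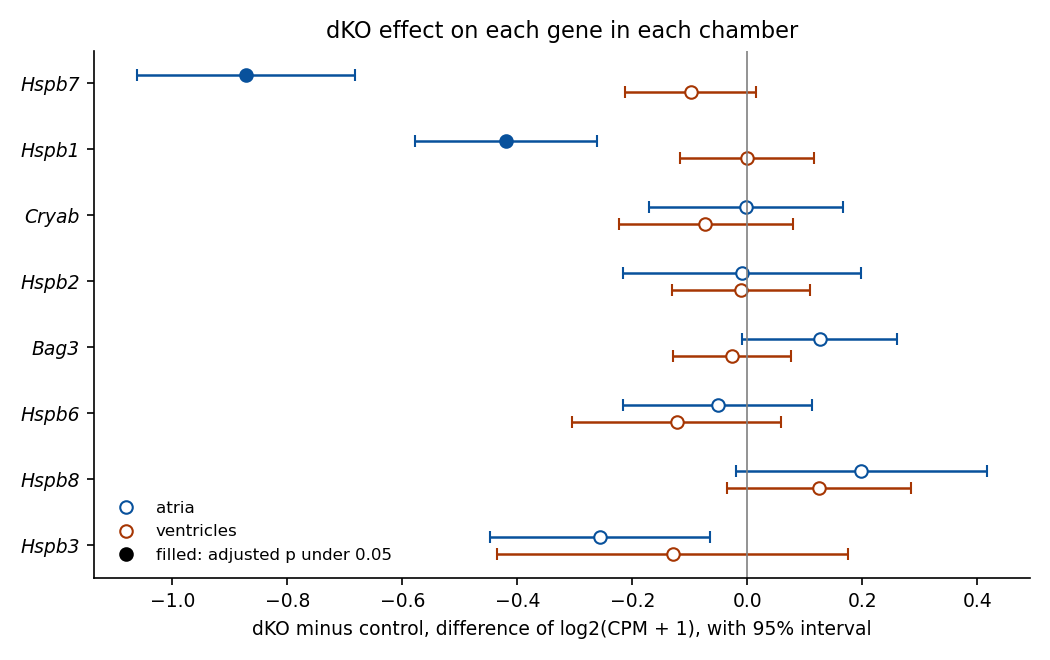
Difference of mean log2(CPM + 1) between dKO and control libraries for each gene, with its 95% interval from limma, in atria and ventricles (4 against 4 libraries each). Filled points had an adjusted p under 0.05: Hspb7 (-0.87) and Hspb1 (-0.42) in atria, and none in ventricles.

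Whether the dKO effect differed between atria and ventricles was tested directly, in 1 fit over the 16 libraries that took the embryo as a block. Hspb7 (log2 0.77 ± 0.097 SE for ventricles minus atria, limma adjusted p = 0.000103, rank 38) and Hspb1 (0.42 ± 0.087 SE, limma adjusted p = 0.0103) were called, 2 of 8 members, both with the ventricular effect higher. In this comparison 2.64% of all genes were called and 1.31% were called higher. The other 6 members ranged from -0.15 (Bag3, limma adjusted p = 0.343) to 0.13 (Hspb3). The Hspb1 call was lost within the shared title number (0.37, limma adjusted p = 0.079), without control embryo 4 (0.375, adjusted p just above 0.05), relative to the myocyte markers (0.26, adjusted p = 0.204) and with the covariate of other cells (0.46, adjusted p = 0.114). Hspb7 was called in each of these fits (0.62 to 0.84).

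Between the chambers of control embryos 6 of 8 members were called, 5 higher in ventricles and 1 lower, where 46.9% of all genes were called and 26.4% were called higher. These libraries also entered the dKO comparisons. The ranges of the 2 control chambers did not overlap for 6 of the 8 members and for 43.3% of all genes tested. Hspb8 differed most: it was measured at 60.0, 52.1, 57.1 and 47.7 CPM in control ventricles, 180% of the atrial mean, with no overlap with the atria (log2 0.82 ± 0.09 SE, limma adjusted p = 5.15e-07). Within single embryos the ventricle had 1.44 to 2.05 times the Hspb8 CPM of the atrium. Hspb6 was higher in ventricles (68.3 ± 4.38 against 49.0 ± 4.98 CPM, log2 0.47, limma adjusted p = 6.4e-05).

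Hspb7 (909 ± 27.2 against 704 ± 74.2 CPM, log2 0.37, limma adjusted p = 0.000205) and Hspb1 (313 ± 16.3 against 248 ± 19.1 CPM, log2 0.34, adjusted p = 0.000195) were likewise higher in control ventricles, each in 4 of 4 embryos. Bag3 was higher by only 0.14 (71.7 ± 1.54 against 64.9 ± 2.92 CPM, limma adjusted p = 0.0233). Hspb3 was the 1 member called lower in ventricles (12.1 ± 0.909 against 17.4 ± 1.3 CPM, log2 -0.50, limma adjusted p = 0.00179), in 4 of 4 embryos. Cryab (-0.079) and Hspb2 (0.16) were not called, although Cryab was lower in the ventricle of each of the 4 control embryos (0.93 to 0.97 times the atrium). The share of all genes with the same direction in 4 of 4 embryos was not computed.

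These chamber calls depended on scaling, and edgeR and DESeq2 also differ from limma in the model fitted. Of the 6543 genes called, 3678 were higher in ventricles, against 3186 of 6451 after re-centring on the median, 3069 of 6272 by edgeR, and 1098 of 6509 relative to the myocyte markers. Bag3 lost its call under re-centring (0.11), quantile normalization (0.08), edgeR (0.10) and DESeq2 (0.11), and turned to -0.094 relative to the myocyte markers. It also lost it without control embryo 1, 2 or 3 (0.12 to 0.16, limma adjusted p 0.0507 to 0.12). Hspb7 lost its call under quantile normalization (0.099) and relative to the myocyte markers (0.14), and Hspb1 under the latter (0.099). Bag3 lost its call with the covariate of other cells as well (0.12). Hspb3 lost it within the shared title number (-0.38, limma adjusted p = 0.143). Cryab was called lower under quantile normalization (-0.23, limma adjusted p = 0.0071) and relative to the myocyte markers (-0.31, adjusted p = 0.00533). Hspb2 was called higher within the shared title number (0.20) and without control embryo 4 (0.23, limma adjusted p = 0.00844). Hspb8 and Hspb6 were called higher under every alternative tried in control embryos.

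In dKO embryos 5 of 8 members were called between chambers, 4 higher in ventricles and 1 lower, where 49.1% of all genes were called and 26.5% were called higher. Hspb7 averaged 849.7 ± 50.2 CPM in ventricles and 383.9 ± 32.9 CPM in atria (SD, n = 4), a log2 difference of 1.15 ± 0.069 SE (limma adjusted p = 1.66e-10), and the ventricle had 1.96 to 2.37 times the atrial CPM within single embryos, against 1.16 to 1.48 times in control embryos. Hspb1 differed by 0.75 ± 0.061 SE (limma adjusted p = 1.02e-08), with ratios of 1.51 to 1.83 against 1.15 to 1.34. The ratios of dKO and control embryos did not overlap for either gene. The share of all genes with such ratios was not computed, and the same values entered the test of the difference of effects. Hspb8 (0.75), Hspb6 (0.40) and Hspb3 (-0.37) were called in the same direction as in controls, and Bag3 was not (-0.010). Hspb3 lost its call without dKO embryo 1, 3 or 4 (-0.33 to -0.257, limma adjusted p 0.0582 to 0.116), within the shared title number (-0.26, adjusted p = 0.308) and with the covariate of other cells (-0.86, adjusted p = 0.183). Hspb6 lost its call relative to the myocyte markers (0.009) and with that covariate (0.39, limma adjusted p = 0.426). Cryab was called lower in ventricles than in atria of dKO embryos under quantile normalization (-0.26), edgeR (-0.17), DESeq2 (-0.17), relative to the myocyte markers (-0.54) and without control embryo 4 (-0.15). Hspb2 was called higher within the shared title number (0.22) and without control embryo 4 (0.16), but lower relative to the myocyte markers (-0.23), where Bag3 was also called lower (-0.40). Leaving out control embryo 4 kept the dKO differences of Cryab and Hspb2 as they were and moved only their adjusted p. The spread in this fit is pooled over all 4 groups.

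**Figure D4:**
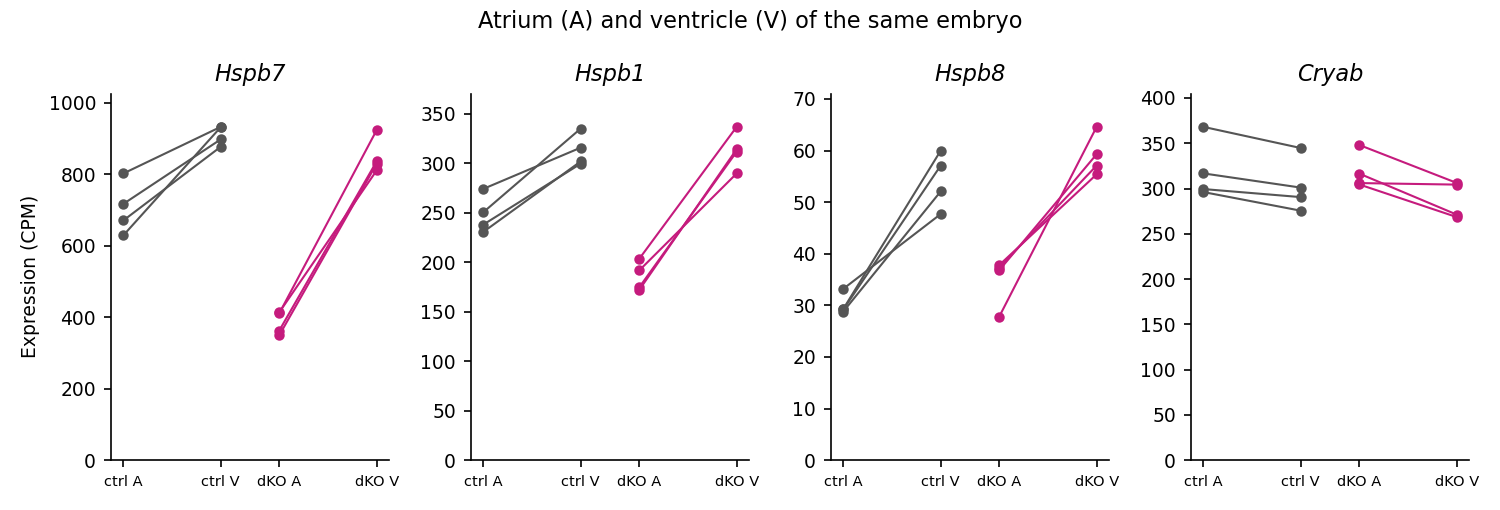
Expression in CPM (linear axis from 0) of Hspb7, Hspb1, Hspb8 and Cryab in the atrium (A) and the ventricle (V) of each embryo, with a line joining both chambers of 1 embryo, for 4 control (ctrl, grey) and 4 dKO (pink) embryos. Hspb7 rises from atrium to ventricle by 1.16 to 1.48 times in control and 1.96 to 2.37 times in dKO embryos, and Cryab is lower in the ventricle of all 8.

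The wider chaperone network was followed in 11 lists of 121 genes, of which 113 were tested. In dKO atria 4 of these rose and 6 fell, 8.85% of those tested against 7.47% of all genes, with a median log2 difference of -0.008 against -0.005. Among other small heat shock proteins, Hspb11, an intraflagellar transport protein despite its name, rose from 6.44 ± 0.458 to 9.31 ± 1.1 CPM (log2 0.47, limma adjusted p = 0.0242). No other BAG protein was called, and the highest by level, Bag6 (-0.085) and Bag1 (-0.17), differed little. Of 12 partners of chaperone-assisted selective autophagy 1 fell, Synpo2 (synaptopodin 2, the Bag3 partner at the Z-disc), from 142 ± 6.65 to 101.5 ± 3.25 CPM (log2 -0.48, limma adjusted p = 0.000214). The constitutive HSP70 Hspa8 (-0.067) and the client filamin C, Flnc (-0.005), were not called.

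Of 15 HSP70 and HSP110 chaperones only Hspa2 was called (-0.41), and of 10 chaperonins only the mitochondrial Hspd1 (-0.21). None of 13 HSP90 chaperones and co-chaperones, 17 DNAJ co-chaperones, 16 genes of the unfolded protein response or 3 heat shock factors and regulators tested was called in atria by limma. The highest of these by level were Hsp90ab1 (-0.068), Dnaja1 (0.105), Hspa5 (0.24) and Hsbp1 (-0.017). Filament and Z-disc clients moved both ways: the LIM protein Fhl2 (-1.38, from 160.4 ± 51.4 to 59.7 ± 12.7 CPM), Actn2 (alpha-actinin, -0.36) and Ldb3 (cypher, -0.33) fell, while Tcap (telethonin, 0.41) and Myoz2 (calsarcin 1, 0.58) rose among 17 tested. A list of 11 genes held kinases and phosphatases that act on small heat shock proteins, and Ywhaq, which is neither. Of these genes Mapkapk2, the kinase that phosphorylates Hspb1, rose by 0.21 (limma adjusted p = 0.0293). Relative to the myocyte markers Ldb3 (-0.15), Hspa2 (-0.23) and Hspd1 (-0.025) were not called. Actn2 (-0.18) was not called either, but it is itself 1 of those markers, so its difference shrinks by construction there. With the covariate of other cells none of the 10 genes was called.

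In dKO ventricles 3 of the 113 genes were called (2.65%, against 2.0% of all genes), all of them filament and Z-disc genes: Fhl2 (-0.52), Nebl (nebulette, -0.36) and Xirp2 (1.23). The dKO effect differed between chambers for 3 of the 113 (2.65%, against 2.64% of all genes, so near the background): Hspb11 (-0.66), Xirp2 (1.33) and Vim (vimentin, -0.26). By edgeR only Xirp2 of these was called (1.6, adjusted p = 0.0112). Between control chambers 69 of the 113 were called (61.1%, against 46.9% of all genes), 49 higher and 20 lower in ventricles. All 10 chaperonins were called higher, 8 of 13 HSP90 genes were called higher and 1 lower, and of 16 unfolded protein response genes 7 were called lower and none higher, where 26.4% of all genes were called higher and 20.5% lower. Relative to the myocyte markers these counts turned to 1 higher chaperonin, 3 higher and 1 lower HSP90 gene, and 12 lower unfolded protein response genes. Most of all genes called under that scaling were lower in ventricles, as given above, so these counts are not set apart from the background. With the covariate of other cells 7 chaperonins and 5 HSP90 genes were called higher, and 1 HSP90 gene and 2 unfolded protein response genes lower. Fewer of all genes were called with that covariate too, as given below. In dKO embryos 75 of 113 were called between chambers (66.4%, against 49.1%).

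The genes most alike to each member in pattern were found by Pearson correlation of log2(CPM + 1) over the 16 libraries among 12669 genes, as a description in which all genes share libraries, chambers and genotypes. Hspb7 was most like Efnb3, an ephrin ligand, and Stk39, a kinase of ion transport (r = 0.98 for each). Efnb3 measured 47.1, 10.4, 114 and 66.0 CPM in control atria, dKO atria, control ventricles and dKO ventricles. Hspb1 was most like Akr1b3, the aldose reductase (0.973), and Kcnj8, a subunit of ATP-sensitive potassium channels (0.966). Hspb8 was most like the protocadherin Pcdh19 (0.966) and the collagen Col15a1 (0.964), and Hspb3 most like Mrps6 (0.923) and Dhrs11 (0.911). The nearest were Pkmyt1 (0.944) and Taldo1 (0.938) for Hspb2, and Gipc1 (0.943) and Oxa1l (0.942) for Hspb6. Cryab (Anapc16 0.842, Rab1b 0.831) and Bag3 (Zfp764 0.814, Pea15a 0.796) had no gene as close. By Spearman correlation Kcnj8 was only at place 273 for Hspb1, Stk39 at 229 for Hspb7 and Col15a1 at 83 for Hspb8, and of the first named genes only Pkmyt1 kept its place. Within the set, Hspb7 and Hspb1 correlated at 0.963 over the 16 libraries. Cryab correlated with its exon-sharing neighbour Hspb2 at 0.273, and Hspb3 ran opposite to Hspb8 at -0.742.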

How the data were processed

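Polyadenylated RNA was read as 60-base single reads from libraries made with 20 ng of total RNA, per the labels' protocols. The submitters' processing notes name cutadapt, RSEM 1.3.1 and GRCm38. The authors deposited CPM values for 16118 genes. How the values were normalized, which genes were filtered, the annotation release and strand handling: not given in the sources used here. Every deposited CPM value is a whole number of reads plus a constant, times a step per library (100% whole within 0.001). These recovered reads gave the depths and served edgeR 4.0.16 and DESeq2 1.42.0, run as alternatives. In their fits over all 16 libraries the embryo was a fixed effect, whereas limma took it as a block. Because depth differs, low genes such as Hspb3 carry most counting error.

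The 13950 genes averaging 1 CPM or more were tested two-sided with limma 3.58.1 (R 4.3.3, trend option) on log2(CPM + 1), and called at a Benjamini-Hochberg adjusted p under 0.05 over all of them. The dKO effect was fitted per chamber (4 against 4). Chamber differences and the difference of dKO effects used all 16 libraries with embryo as a block (consensus correlation 0.108), since each embryo gave both chambers. The fit was tried on simulated counts with changes placed in dKO atria alone, so power in ventricles was not simulated. Meis1 and Meis2 were compared by two-sided exact permutation.

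The members and lists were chosen with earlier results of these data known. Named were all 8 members, up to 5 called genes per list and comparison (else the 2 highest by level), and the 2 most alike genes per member outside the set with ordinary symbols. Where several lists had no called gene only the highest of each was named, and chamber comparisons give list counts only. IDs of 16096 genes matched GENCODE M21. Promoters are from RefSeq. Proteins of the members were not analysed here.

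Alternatives were pseudocounts of 0.5 and 5, no filter or a mean of at least 5 CPM, median and quantile scaling, edgeR, DESeq2, the title number as a covariate or within the shared title number, no embryo block, each library or embryo left out, other lengths and Spearman correlation. The scaling to 10 myocyte markers and the covariate of 42 other markers, and the check of the gene lists under each scaling, were chosen after seeing the data.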

Additional observations from a re-analysis of the deposited data

Results flagged for a closer look

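The dKO effect on Hspb7 differed between chambers by a log2 of 0.773 (ventricles minus atria, limma adjusted p = 0.000103), and that on Hspb1 by 0.419 (limma adjusted p = 0.0103). Both genes were lower in 4 of 4 dKO atria than in any control atrium, and in ventricles their ranges overlapped.

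Among 32 sets of 4 libraries (8 genes in 4 groups), 4 held a library whose gap to its nearest neighbour took up more of the group's range than Dixon's 95% critical value allows, where chance gives about 5% of such sets. Hspb2 was 78.9 CPM in control atrium 4, above 58.5 to 61.1 CPM in the other 3, and 71.3 CPM in dKO atrium 4, above 60.6 to 62.3 CPM. Hspb8 was 33.2 CPM in control atrium 4, above 28.8 to 29.3 CPM, and 27.8 CPM in dKO atrium 1, below 36.8 to 37.8 CPM.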

How the results depend on the processing

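Of 824 recomputed member differences, 780 kept their direction or stayed uncalled with the same side of the threshold, 25 lost a call, 17 gained one and 2 reversed, both relative to the myocyte markers: Bag3 between control chambers (-0.094) and Hspb2 between dKO chambers (-0.233). Hspb7 in atria was called throughout (-0.98 to -0.69). Relative to the myocyte markers, 1975 genes were called in atria (1772 higher), 164 in ventricles, and 1 member in the difference of effects. With the covariate of other cells, 225 genes and 1 member (Hspb7) were called in atria, 3146 genes between control chambers, 1192 genes and 3 members between dKO chambers, and 118 genes and 1 member (Hspb7) in the difference of effects. Within the shared title number, 79 genes were called in ventricles, and 226 genes and 1 member in the difference of effects. DESeq2 called 469 genes in ventricles. With 1 embryo left out, the difference of effects gave 238 to 470 genes and 1 to 2 members, the lowest without dKO embryo 3 or control embryo 4. Without the embryo block (no replicate block) the chambers of control embryos gave 6160 genes and 6 members, those of dKO embryos 6515 genes and 5, and the difference of effects 294 genes and 2. Genotypes were not paired by replicate number. The title numbers that hold both genotypes entered only the alternatives named above. Of 72 recomputed places in the order of levels and correlations, 32 were the same and 40 moved. The cause of these changes was not tested. Depth limits Hspb3 most, with 144 to 174 reads in dKO ventricles.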
